A study of Homo sapiens with 18 samples.

Results

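The 10 genes described here, of 58302 in the expression table, are the cyclins, kinases and regulators that carry a cell through G1: the D-type cyclins CCND1 and CCND3, the E-type cyclins CCNE1 and CCNE2, the kinases CDK2, CDK4 and CDK6, the inhibitor CDKN1B (p27), the pocket protein RB1 and the transcription factor E2F1. They were chosen by name as parts of one pathway, and CCND1 was included after it had been seen to fall in these libraries, so its values are given as a description without a test. D-type cyclins bind CDK4 or CDK6 and phosphorylate RB1, which otherwise holds E2F1 and its relatives inactive at the promoters of genes for DNA replication. Once E2F is released it drives transcription of the E-type cyclins, which activate CDK2 and phosphorylate RB1 further, while p27 holds CDK2 back. In pancreatic ductal adenocarcinoma the gene of p16 (CDKN2A), an inhibitor of CDK4 and CDK6, is often deleted.

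The libraries came from PANC-1, an established line from a human pancreatic ductal carcinoma. Control cells (shCtrl) carried a lentiviral control shRNA vector, called empty in the labels, and NAT10-KD cells (shNAT10) carried a lentiviral shRNA against NAT10, the enzyme that writes N4-acetylcytidine (ac4C) on RNA. RNA-seq was done on 3 libraries per group, and acRIP-seq, in which RNA fragments are pulled down with an antibody against ac4C, on 3 IP and 3 input libraries per group. The study names 2 shRNAs against NAT10 and does not say which one these cells carried, no second control line is labelled, and nothing in the labels ties the replicates to separate infections or cultures, so that p-values measure only the spread between these libraries.

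NAT10 fell from 29.3 ± 2.01 FPKM (fragments scaled by transcript length and library size) in shCtrl cells to 8.09 ± 0.301 in shNAT10 cells (SD, n = 3 each, limma adjusted p = 3.85e-05). Reads on genes, recovered from the steps between FPKM values, came to between 15913828 and 23645970 per RNA-seq library. The library of shCtrl replicate 2 stood apart from the other shCtrl libraries by transcript length. Its values were 0.312 higher on the log2 scale (median of 2194 genes) for transcripts under 1.5 kb and differed by -0.343 from the mean of the others for transcripts over 6 kb (median of 2169 genes), so results on the members are given with and without it. Its part in them was tested only by leaving it out. The keratins KRT8, KRT18 and KRT19 of ductal epithelium were abundant, with all 5 markers of that list summing to between 2823 and 3781 FPKM in shCtrl and between 1513 and 1694 in shNAT10 libraries. SOX9 of the same list lay the other way, between 36.3 and 39.5 FPKM in shCtrl and between 43.3 and 43.8 in shNAT10 libraries, and the part of these differences in the members' results was not tested. Of 5 leukocyte markers 1 (CD14) and of 4 fibroblast markers 2 (COL1A1 and COL3A1) reached an FPKM of 1 in any library, of 3 endothelial markers none did, and CD3E was listed at 0 throughout.

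E2F1 is itself a gene that E2F factors are known to bind, and its promoter is shown for that reason. Of the 10 promoter windows that RefSeq (GRCh38.p14) gives for 7 members, each the 250 bases before a transcription start, only the window of E2F1 at chr20:33686386-33686635 (minus strand) held one of the 4 E2F letter strings TTTCCCGC, TTTCGCGC, TTTGCCGC and TTTGGCGC on either strand. It held 2, in capitals below, one beginning 33 bases before the start on the opposite strand (TTTGCCGC) and one beginning 20 bases before it (TTTGGCGC).
E2F1 promoter: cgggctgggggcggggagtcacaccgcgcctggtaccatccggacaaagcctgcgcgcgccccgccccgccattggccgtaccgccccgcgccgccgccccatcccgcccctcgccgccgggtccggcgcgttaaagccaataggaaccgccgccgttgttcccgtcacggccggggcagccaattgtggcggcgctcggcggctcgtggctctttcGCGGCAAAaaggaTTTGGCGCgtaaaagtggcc
Such a string was found in 2.79% of all 35116 promoter windows and in 9 of the 26 windows of the E2F target genes of DNA replication listed further on. The one window given for RB1 lies inside the gene, at chr13:48476200-48476449, so the start of RB1 itself was not searched. A match is a description of letters, and its absence from the other windows says only that these letters were not in them.

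For orientation, the members lie in the GENCODE v29 annotation of GRCh38 at chr11:69641087-69654474 (CCND1), chr6:41934933-42050357 (CCND3), chr19:29811898-29824308 (CCNE1), chr8:94879770-94896678 (CCNE2), chr12:55966769-55972784 (CDK2), chr12:57747727-57756013 (CDK4), chr7:92604921-92836594 (CDK6), chr12:12715058-12722371 (CDKN1B), chr13:48303726-48599436 (RB1) and chr20:33675683-33686404 (E2F1). Exons on the opposite strand cover 43.2% of the exon bases of CDK4 (TSPAN31), 37.1% of those of CCNE2 (mainly INTS8), 16.8% of those of CDK2 (mainly PMEL) and 10.3% of those of CCND1 (LTO1). The study names a stranded library kit for RNA-seq, but whether reads were counted by strand is not given in the sources used here. How far the values of these 4 genes are affected is therefore not known.

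The members covered a wide range of levels on the FPKM scale, which allows for transcript length. In shCtrl cells CCND1 was by far the most abundant at 162 ± 2.90 FPKM, followed by CDK4 at 53.4 ± 5.65 and CDK2 at 30.3 ± 1.32, each above the next without overlap of the libraries. CDKN1B (22.1 ± 0.536) and CCND3 (20.1 ± 2.51) overlapped each other, as did each neighbouring pair of RB1 (13.8 ± 3.01), CCNE1 (10.7 ± 0.726), CDK6 (8.84 ± 2.98) and E2F1 (8.45 ± 1.16). CCNE2 was lowest at 3.23 ± 0.299. In shNAT10 cells the first 4 places stayed with CCND1, CDK4, CDK2 and CDKN1B, and CCNE2 again came last. CDK6 moved from place 8 to place 5, where it overlapped with RB1 in place 6, E2F1 from place 9 to place 7, and CCND3 from place 5 to place 8.

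**Figure D1:**
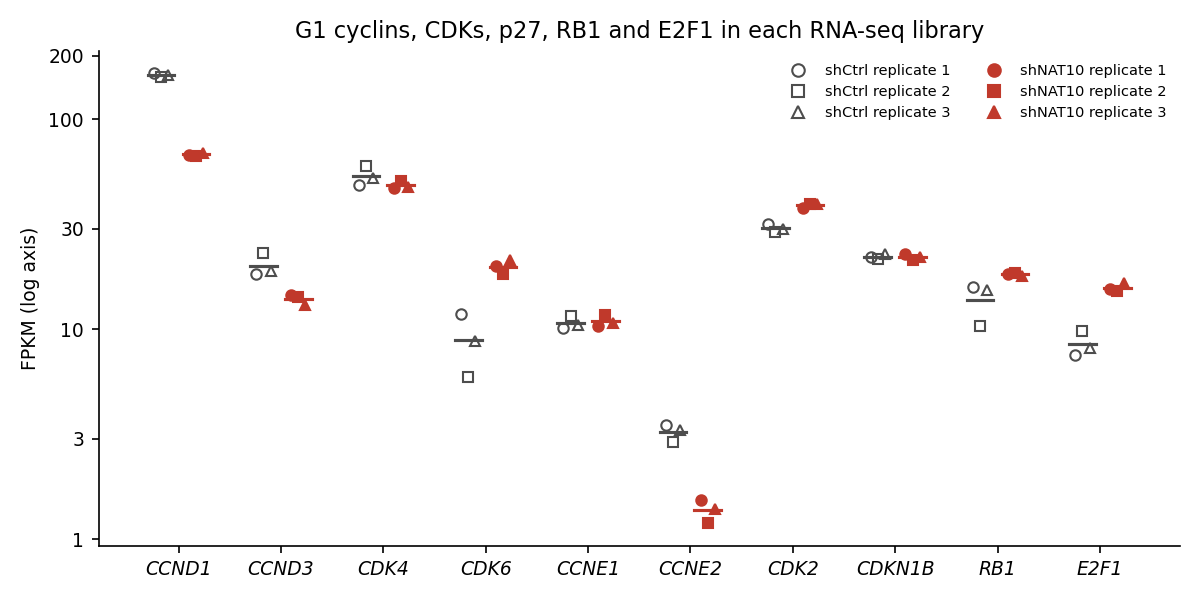
FPKM on a log axis of the 10 members in each of the 6 RNA-seq libraries, open grey symbols for shCtrl and filled red symbols for shNAT10, with a bar at each group mean (n = 3). CCND1 drops from 162 to 67.9 FPKM and CCNE2 from 3.23 to 1.37, and CDK6 and E2F1 rise. CCNE1 and CDKN1B sit at nearly the same height in both groups, and shCtrl replicate 2 (open squares) lies apart for CDK6 and RB1.

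Among the D-type cyclins, CCND1, the main cyclin partner of CDK4 and CDK6 in epithelial cells, stood at 165, 159 and 162 FPKM in shCtrl replicates 1 to 3 and at 67.6, 67.0 and 69.1 in shNAT10 replicates 1 to 3. The groups lay far apart, and within each group the libraries were close together. The shNAT10 mean was 0.418 of the shCtrl mean, a log2 fold change of -1.26 ± 0.0560 (SE) on log2(FPKM + 0.1), with between 12346 and 16452 reads behind each shCtrl value and between 4611 and 5607 behind each shNAT10 value. Its fold change was the 274th lowest of 12982 genes tested, and was -1.27 on the log2 scale without shCtrl replicate 2. CCND3, the other D-type cyclin expressed here, stood at 18.3, 22.9 and 19.0 FPKM in shCtrl and at 14.5, 14.2 and 13.04 in shNAT10 libraries. All shNAT10 values were below all shCtrl values, and shCtrl replicate 2 was the highest. CCND3 fell by 0.52 on the log2 scale (SE 0.102, adjusted p = 0.00699), and by 0.42 without shCtrl replicate 2 (adjusted p = 0.00151). CCND2, the third D-type cyclin, was at 0.205 ± 0.0669 FPKM in shCtrl and 0.211 ± 0.0442 in shNAT10 cells, too low to be tested. In a bulk sample, fewer cells with a transcript and less of it per cell cannot be told apart.

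Summed over the 3 D-type cyclins, the FPKM went from 183 ± 1.03 to 82.0 ± 0.523, the shNAT10 sum being 0.449 of the shCtrl sum. CCND1 made up 90.0%, 87.3% and 89.4% of that sum in shCtrl libraries and 82.1%, 82.3% and 83.9% in shNAT10 libraries. CCND1 thus remained the largest part of the D-type cyclin RNA in all 6 libraries.

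CDK4 and CDK6, the kinases that D-type cyclins activate, moved differently. CDK4 stood at 48.5, 59.6 and 52.1 FPKM in shCtrl and at 47.1, 50.7 and 47.5 in shNAT10 libraries. The groups overlapped, shCtrl replicate 2 being the highest value, and the log2 difference of -0.14 ± 0.0890 did not pass the test (adjusted p = 0.259), nor did it without that library (-0.05, adjusted p = 0.457). CDK6 stood at 11.9, 5.89 and 8.79 FPKM in shCtrl and at 19.9, 18.2 and 21.3 in shNAT10 libraries. Every shNAT10 value was above every shCtrl value, and shCtrl replicate 2 was the lowest. CDK6 rose by 1.21 on the log2 scale (SE 0.231, adjusted p = 0.00606). Its longest transcript has 11612 bases, the class in which shCtrl replicate 2 read low, and without that library the rise was 0.95 (adjusted p = 0.000741), while after removing the trend with transcript length from every library, a setting chosen after seeing the data, it was 1.00 (adjusted p = 0.000307).

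CDK4 made up 80.4%, 91.0% and 85.6% of the summed CDK4 and CDK6 FPKM in shCtrl libraries and 70.3%, 73.5% and 69.0% in shNAT10 libraries. The groups did not overlap (two-sided exact permutation test, p = 0.1, the smallest that 3 against 3 libraries allow). The sum itself was 62.2 ± 2.80 FPKM in shCtrl and 68.3 ± 1.05 in shNAT10 cells.

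**Figure D2:**
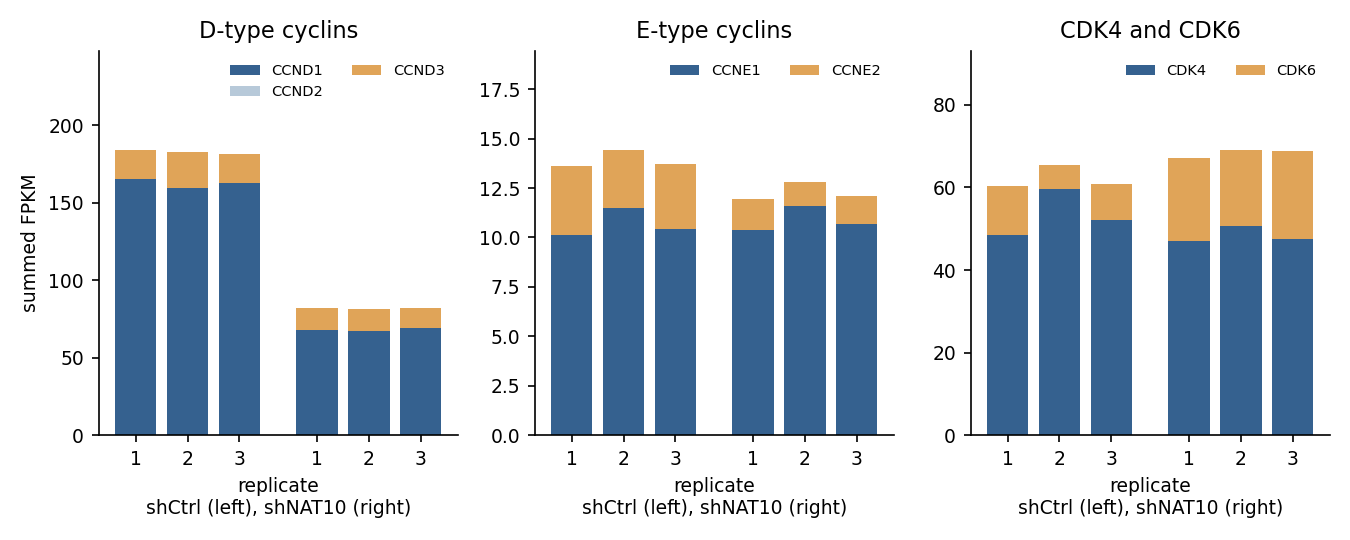
Stacked FPKM in each RNA-seq library (replicates 1 to 3 of shCtrl on the left, of shNAT10 on the right) of the D-type cyclins, the E-type cyclins and CDK4 with CDK6, on linear axes from 0. The D-type sum drops from 183 to 82.0 FPKM with CCND1 the largest part in every bar, the CCNE2 part of the E-type bars shrinks, and the CDK6 part of the kinase bars grows.

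The E-type cyclins, which activate CDK2 late in G1, also parted. CCNE1 stood at 10.1, 11.5 and 10.4 FPKM in shCtrl and at 10.4, 11.6 and 10.7 in shNAT10 libraries. The groups overlapped almost entirely, with a log2 difference of 0.03 ± 0.0824 (adjusted p = 0.792), and of 0.084 without shCtrl replicate 2 (adjusted p = 0.344). CCNE2 stood at 3.497, 2.91 and 3.29 FPKM in shCtrl and at 1.54, 1.19 and 1.39 in shNAT10 libraries. The groups did not overlap, with 196 to 258 reads behind each shCtrl value and 77 to 82 behind each shNAT10 value, the fewest of any member. CCNE2 fell by 1.18 on the log2 scale (SE 0.144, adjusted p = 0.000989), and by 1.25 without shCtrl replicate 2 (adjusted p = 0.000514). CCNE1 made up 74.3%, 79.8% and 76.0% of the summed E-type FPKM in shCtrl libraries and 87.1%, 90.7% and 88.5% in shNAT10 libraries, again without overlap (two-sided exact permutation test, p = 0.1, the smallest possible).

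CDK2, their kinase, stood at 31.7, 29.04 and 30.1 FPKM in shCtrl and at 37.8, 39.3 and 39.5 in shNAT10 libraries. The groups did not overlap, and CDK2 rose by 0.36 on the log2 scale (SE 0.0638, adjusted p = 0.00453), and by 0.33 without shCtrl replicate 2 (adjusted p = 0.00133). CDKN1B, whose product p27 binds and inhibits cyclin E with CDK2, stood at 22.0, 21.6 and 22.7 FPKM in shCtrl and at 22.7, 21.4 and 22.0 in shNAT10 libraries. The groups overlapped, and the log2 difference was -0.0049 ± 0.0620 (adjusted p = 0.956), and -0.021 without shCtrl replicate 2 (adjusted p = 0.7645). With libraries scaled to a common sum (TPM) the difference was 0.10, the largest size it took under the alternatives.

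RB1, the pocket protein that restrains E2F, stood at 15.8, 10.4 and 15.3 FPKM in shCtrl and at 18.2, 18.4 and 18.0 in shNAT10 libraries. All shNAT10 values were above all shCtrl values, but shCtrl replicate 2 lay far below the other shCtrl libraries. The log2 difference of 0.42 ± 0.158 did not pass the test (adjusted p = 0.0692). Without shCtrl replicate 2 it was 0.23 ± 0.0517 and passed (adjusted p = 0.00907), and it also passed without shCtrl replicate 1 (0.53, adjusted p = 0.0337) and after the correction for transcript length (0.36, adjusted p = 0.0440).

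E2F1, the activator that RB1 binds, stood at 7.51, 9.75 and 8.10 FPKM in shCtrl and at 15.4, 15.2 and 16.5 in shNAT10 libraries. The groups did not overlap, shCtrl replicate 2 being the shCtrl library nearest to the shNAT10 values. E2F1 rose by 0.90 on the log2 scale (SE 0.107, adjusted p = 0.000914), and by 1.00 without shCtrl replicate 2 (adjusted p = 3.61e-05).

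Of the 9 members other than CCND1, CCND3 and CCNE2 were called lower and CDK2, CDK6 and E2F1 higher at an adjusted p under 0.05, and the other 4 were not called. Among all 12982 genes tested 21.2% were called lower and 20.8% higher, 42.0% in all, beside 5 of these 9 (55.6%), from which nothing particular to the members is read. Leaving CCND1 aside, FPKM values of the groups did not overlap for 6 of the 9 members, against 56.5% of all genes tested. The median log2 fold change was 0.01 over the 10 members and -0.01 over all genes tested. Scaling to TPM moved the median of all genes to 0.10 and the calls over all genes from 2751 lower and 2699 higher to 2075 lower and 3355 higher. It left the members' calls at 2 lower and 3 higher. The calls of CCND3, CCNE2, CDK2, CDK6 and E2F1 held under each alternative in which the gene was tested. Their limma adjusted p-values ran up to 0.0079 (CCNE2), 0.0071 (E2F1), 0.028 (CDK6), 0.029 (CDK2) and 0.034 (CCND3) over these alternatives, and that of RB1 ran from 0.00907 to 0.16.

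**Figure D3:**
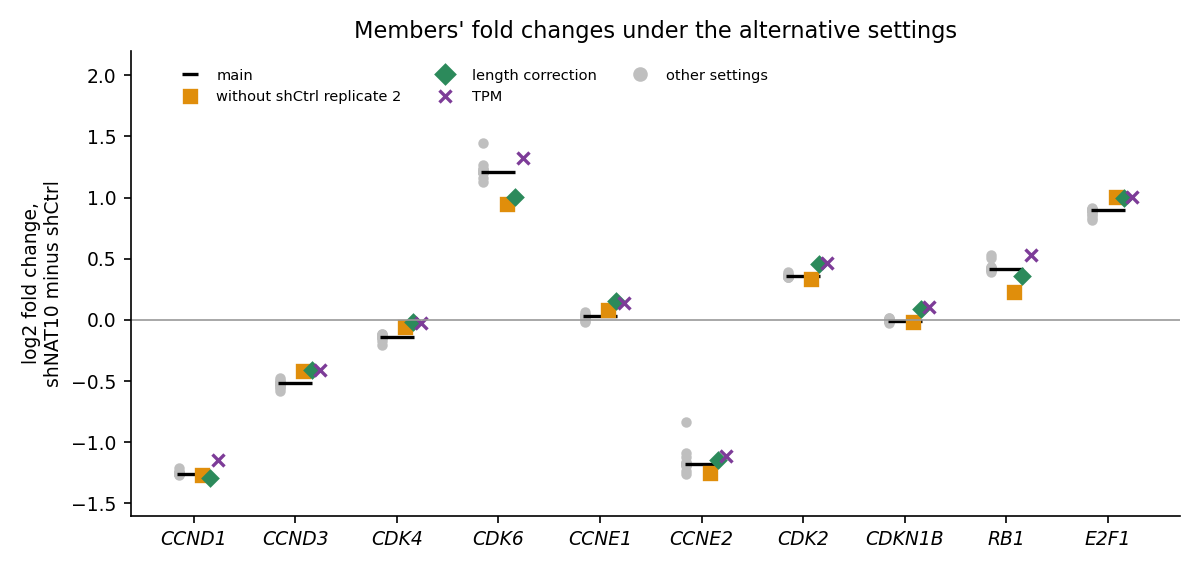
Log2 fold change, shNAT10 minus shCtrl, of each member in the reported fit (black bar) and under the alternatives: without shCtrl replicate 2 (orange squares), after correction for transcript length (green diamonds), with TPM (purple crosses) and the others (grey points). CDK6 and RB1 move most when shCtrl replicate 2 is left out, to 0.95 and 0.23, CCNE2 lies higher at a pseudocount of 1 (-0.84), and the values of CCNE1 and CDKN1B lie on both sides of 0.

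Among the 5 protein-coding genes whose values over the 6 libraries lay nearest to those of CCND1, by Euclidean distance in log2(FPKM + 0.1) centred on each gene's mean, were WDR45B (distance 0.116), CACNG8 (0.150), SEPTIN2 (0.155) and SYNPO (0.159), of 11017 compared. The log2 fold changes of these 4 ran from -1.15 (SEPTIN2) to -1.32 (CACNG8). They lie near that of CCND1 because the genes were picked by closeness over the same libraries, so they are a description only. SEPTIN2 was closest to CCND1 in level as well, with 146 FPKM in shCtrl and 65.5 in shNAT10 cells.

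The other genes of the pathway were taken from lists by role, 64 genes in all, of which 60 were tested. Of these 60, 10 (16.7%) were called lower and 27 (45.0%) higher, against 21.2% and 20.8% of all genes tested, and their median log2 fold change was 0.20, beside -0.01 over all genes tested. These counts changed when single libraries were left out, as did those over all genes. Those called lower were 4 without shCtrl replicate 3, 4 without shNAT10 replicate 1, 6 without shNAT10 replicate 2 and 5 without shNAT10 replicate 3. Over all genes tested, those called lower went from 2751 to 1892, 1831, 1897 and 1765 in the same fits. Those called higher were 17 without shNAT10 replicate 2, a fit that called 1774 of all genes higher in place of 2699. They ran up to 31, the count without shCtrl replicate 2, beside 3303 over all genes.

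Among the inhibitors of the kinases, CDKN1A (p21), an inhibitor of CDK2 complexes, fell from 46.6 ± 3.45 to 14.5 ± 0.694 FPKM (log2 fold change -1.67, adjusted p = 5.03e-05), and CDKN1C (p57) fell from 7.59 ± 1.41 to 3.91 ± 0.649 (-0.94, adjusted p = 0.00519). The inhibitors of CDK4 and CDK6 went the other way. CDKN2C (p18) rose from 15.4 ± 1.14 to 23.8 ± 0.368 (0.62, adjusted p = 0.000904) and CDKN2D (p19) from 3.83 ± 0.884 to 5.60 ± 0.345 (0.56, adjusted p = 0.0306). CDKN2A was listed at 0 in 5 of the 6 libraries and at 0.0449 FPKM in the remaining one, and CDKN2B at 0 in all 6. Both pocket proteins related to RB1 rose: RBL1 (p107) from 2.47 ± 0.451 to 6.35 ± 0.255 FPKM (1.34, adjusted p = 0.00058) and RBL2 (p130) to 15.9 ± 0.671 (0.69, adjusted p = 0.0101). CCNA2, the cyclin of S phase, rose from 29.2 ± 0.587 to 41.6 ± 0.982 (0.51, adjusted p = 0.00083), and CDC25A, the phosphatase that activates CDK2, from 4.78 ± 0.124 to 8.75 ± 0.349 (0.86, adjusted p = 0.000264).

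Of 9 E2F and DP subunits, 3 rose and 3 fell (33.3% each, against 20.8% and 21.2% of all genes tested). TFDP1, the DNA-binding partner of E2F1, rose from 34.2 ± 0.466 to 63.3 ± 1.43 FPKM (log2 fold change 0.88, adjusted p = 0.000108), and the atypical repressors E2F8 (0.95, adjusted p = 0.00179) and E2F7 (0.54, adjusted p = 0.0461) rose as well. Without shCtrl replicate 2, in which E2F7 read lowest, its difference was 0.33 (adjusted p = 0.0133). E2F5, a repressor that binds RBL2, fell from 7.75 ± 0.681 to 4.49 ± 0.306 (-0.77, adjusted p = 0.00114), and E2F2 (-0.41, adjusted p = 0.0317) and E2F4 (-0.28, adjusted p = 0.0464) fell less. Of 6 genes of the MuvB complex and its partner B-MYB, 4 rose (66.7%, against 20.8%) and none fell, MYBL2 by 0.72 and LIN52 by 0.63. The smallest of these rises, 0.23, was 0.07 after the correction for transcript length and was then not called (limma adjusted p = 0.505).

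Of 20 genes of DNA replication that E2F is known to drive, 10 rose (against 20.8% of all genes tested), 1 fell (5.0%, against 21.2%) and 9 were not called, with a median of 0.25. RRM1, the large subunit of ribonucleotide reductase, rose from 43.9 ± 3.09 to 79.1 ± 2.14 FPKM (log2 fold change 0.85, adjusted p = 0.000258). ORC1 (0.59) and CDC45 (0.57), which act at origins of replication, also rose. The one that fell was RRM2, the small subunit of the same reductase, from 17.3 ± 0.903 to 7.47 ± 0.669 (-1.20, adjusted p = 0.000167). Exons of another gene on the same strand cover 20.2% of its exon bases, so its reads may be split between them. Of 4 proliferation markers 2 rose, MKI67 by 0.60 and TOP2A by 0.54. Without shCtrl replicate 2, in which both read lowest, the rises were 0.39 for MKI67 and 0.38 for TOP2A. Among 10 genes of ubiquitin ligases listed for the control, direct or indirect, of G1 cyclins and p27, 4 fell (RBX1, FBXO31, FZR1 and SKP1, between -0.36 and -0.42, against 21.2% of all genes tested) and SKP2, the receptor for p27, rose by 0.33 (adjusted p = 0.0394). The calls of CDKN2D, E2F2, E2F4, E2F7, MKI67, TOP2A, RBX1, FBXO31, FZR1, SKP1 and SKP2 were each lost in at least 3 of the 6 fits that leave out 1 library, with the same direction throughout. The same held for the smallest rise of the MuvB list and for some called genes of these lists that are not named here.

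**Figure D4:**
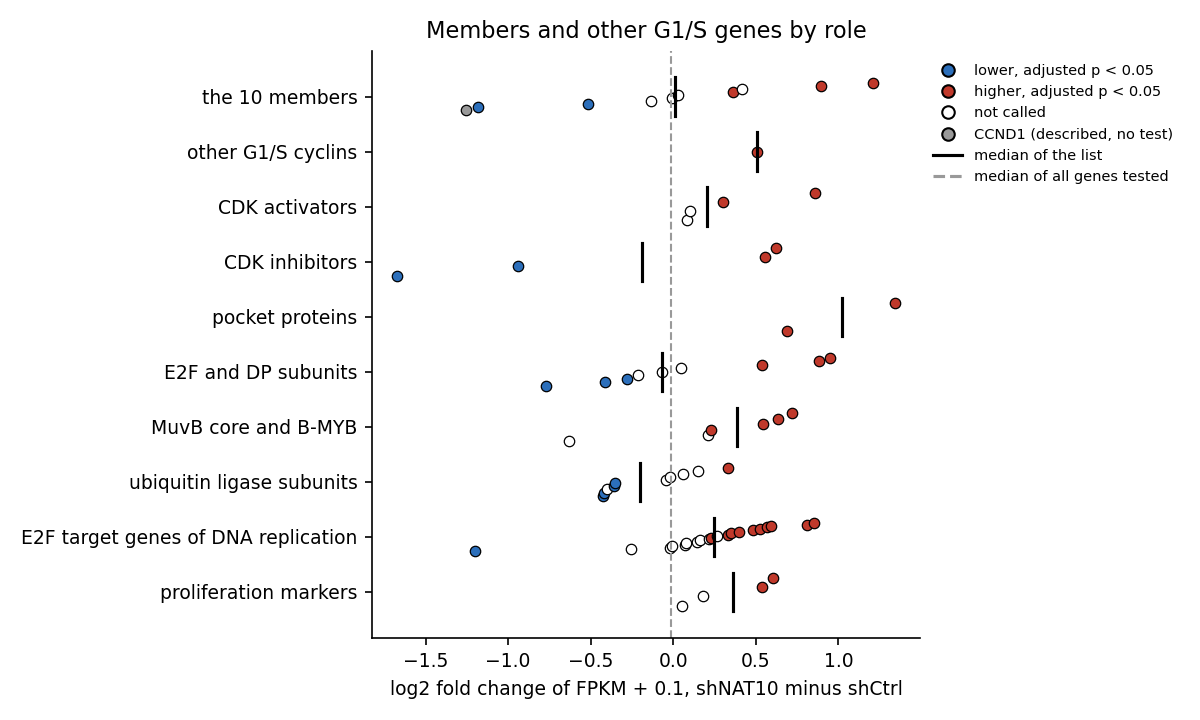
Log2 fold change of FPKM + 0.1, shNAT10 minus shCtrl, of the 10 members and of the tested genes of each role list, 1 point per gene, blue where lower and red where higher at an adjusted p under 0.05, white where not called, grey for CCND1, with a bar at the median of each list and a dashed line at the median of all genes tested (-0.01). Both pocket proteins are red, the inhibitors split into 2 blue and 2 red points, and among the E2F target genes RRM2 at -1.20 is the one blue point.

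The acRIP-seq lists gave ac4C antibody peaks on the same genes, 1 list per group, so that no replicate error can be given and no test was run. Peaks were listed in shCtrl cells for 6 of the 10 members and in shNAT10 cells for 7, against 49.6% and 47.7% of all genes tested in RNA-seq. The members carried 19 of 16892 shCtrl peaks and 22 of 15813 shNAT10 peaks. Of these, 5 of 19 (26.3%) shared at least 1 base with a peak of the other group and 6 of 22 (27.3%) did so in the other direction, beside 25.5% and 27.2% of all peaks. The lists also held peaks on genes with almost no RNA in these cells. In shCtrl cells 881 of the 8244 genes with a peak (10.7%) were under 0.1 FPKM in every RNA-seq library, CDKN2A was listed with 2 shCtrl peaks at fold enrichments of 310 and 82.9 though it was at 0 in 5 of 6 libraries, and CCND2 with 2 shNAT10 peaks of 20.9 and 616. Where those reads came from was not tested.

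The deposited fold enrichment (IP against input) was low for CCND1 beside the whole of each list, and was not compared with that of genes of like level. Its shCtrl peak at chr11:69653334-69653484 had a fold enrichment of 1.73, at or above only 0.604% of the shCtrl list, and its shNAT10 peak at chr11:69651475-69651805 had 3.74, at or above 7.16% of its list. Ranked by p, the shNAT10 peak was among the 50% of its list with the lowest p, and the shCtrl peak was not. Both peaks lay in the 3′ UTR and did not overlap. At the level of CCND1, 66.7% of 282 genes in shCtrl cells and 71.3% of 853 genes in shNAT10 cells had a peak (genes within 1.5-fold of its mean FPKM). The letters of both CCND1 peaks held no run of 4 triplets that each begin with C (CNNCNNCNNCNN, read on the sense strand), a repeat described around ac4C sites.

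CCND3 had 2 peaks in shCtrl cells, 1 of them in its 3′ UTR at chr6:41935083-41935352 with a fold enrichment of 2480, at or above 98.5% of the list, and 4 in shNAT10 cells with 30.3 to 240.0, none of which overlapped a shCtrl peak. CDK6 had 6 shCtrl peaks with 23.6 to 206 and 8 shNAT10 peaks with 2.83 to 69.2, and apart from 1 shNAT10 peak in the 5′ UTR all lay in its long 3′ UTR. CDK4 had 4 shCtrl peaks and 1 shNAT10 peak. The shNAT10 peak at chr12:57752096-57752334 overlapped the shCtrl peak at chr12:57752066-57752334 by 180 bases in the 5′ UTR, with a fold enrichment of 171 in the shCtrl and 26.0 in the shNAT10 list. RB1 had 5 peaks in each group, and 3 of each overlapped, all of them in the coding sequence.

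Another 5 members had peaks in 1 group only or in none despite being expressed. CCNE1, whose RNA was not called different between the groups, had no shCtrl peak and 2 shNAT10 peaks (5.66 and 83.5). CDKN1B, also not called different in RNA, had no shCtrl peak and 1 shNAT10 peak in its 3′ UTR with 453. E2F1 had 1 shCtrl peak in its coding sequence with 23.1 and no shNAT10 peak, although its RNA was higher there. CDK2 and CCNE2 had none in either list. At the level of CDK2, 69.7% of 1753 genes in shCtrl and 69.9% of 1418 genes in shNAT10 cells had a peak, and at that of CCNE2 37.5% and 22.0%. For CCNE1 these shares were 56.5% and 55.5%, for CDKN1B 66.9% and 64.6%, and for E2F1 52.2% and 60.4%, so that many genes of like level lacked a peak in either list.

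Next, 3 stretches of peaks within coding sequences are shown for the contrast in their letters, as spliced RNA letters written with T from GENCODE v29 (GRCh38), with matches to the C-repeat in capitals. The E2F1 stretch is the 150 bases of its shCtrl peak (chr20:33679930-33686195, minus strand, 3 exons) with the most matches, 16. The RB1 stretch is its first shNAT10 peak (chr13:48342682-48349004, plus strand, 4 exons), all of whose 241 bases also lay in a shCtrl peak, and the CCNE1 stretch is its coding shNAT10 peak (chr19:29822507-29823738, plus strand, 2 exons). Neither of these holds a match.
E2F1, shCtrl: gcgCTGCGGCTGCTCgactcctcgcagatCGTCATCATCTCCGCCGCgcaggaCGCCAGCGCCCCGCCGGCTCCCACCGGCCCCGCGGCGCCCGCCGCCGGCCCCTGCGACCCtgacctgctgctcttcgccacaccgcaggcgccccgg
RB1, both groups: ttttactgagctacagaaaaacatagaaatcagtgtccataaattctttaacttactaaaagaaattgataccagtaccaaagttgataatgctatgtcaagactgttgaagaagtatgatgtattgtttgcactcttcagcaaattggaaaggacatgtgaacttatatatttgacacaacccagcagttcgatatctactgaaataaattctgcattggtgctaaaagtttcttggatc
CCNE1, shNAT10: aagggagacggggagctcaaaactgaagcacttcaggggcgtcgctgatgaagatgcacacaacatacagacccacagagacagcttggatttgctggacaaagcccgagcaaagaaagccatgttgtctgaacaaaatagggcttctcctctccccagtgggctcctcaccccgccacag
G and C made up 72.6% of the whole E2F1 peak, 32.8% of the RB1 peak and 54.1% of the CCNE1 peak. Of the member peaks whose letters could be read as 1 stretch of a transcript, 4 of 13 in shCtrl and 5 of 18 in shNAT10 cells held the C-repeat, beside 51.7% and 51.0% of all peaks read, and no peak of RB1 that could be read held it. CDK6 (6 shCtrl and 8 shNAT10 peaks) and RB1 (5 in each group) gave most of the member peaks. Peaks of the same gene are not independent, so these counts are not read as a trait of the members.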

How the data were processed

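RNA-seq (3 shCtrl and 3 shNAT10 libraries) and acRIP-seq (1 peak list per group) of PANC-1 cells were analysed, with groups taken from the labels. Per the submitters' processing notes, HISAT2 (2), HTSeq (0.11.0) and DESeq2 (1.22.2) were used on hg38. The authors deposited FPKM per gene, and for each peak the fold enrichment of IP over input, a ratio. The peak caller, and how replicates were joined, are not given in the sources used here. Columns of peak p-values, as the caller gave them, served only to rank peaks.

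Of 58302 genes, 58039 matched GENCODE v29. log2(FPKM + 0.1) of the 12982 genes reaching an FPKM of 1 in 3 or more libraries was fitted with limma 3.58.1 (R 4.3.3, mean-variance trend, Benjamini-Hochberg over all genes), with differences in sign shNAT10 minus shCtrl. Steps between FPKM values gave whole reads for 99.6% of values (within 0.01 reads), and voom on those reads called 2802 genes lower and 2868 higher. These reads gave the depths, since the deposited FPKM hold none, and cover counting only. Each peak was placed in the longest coding transcript of its gene by its midpoint, and peaks were counted as shared from 1 base on the same strand of the same gene. Exact permutation tests used SciPy 1.17.1 (Python 3.11.15, pandas 2.3.3, NumPy 2.4.6, matplotlib 3.10.9). The fit and the motif search were tested on simulated data.

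The members and lists were chosen with earlier results of these data known. Named besides the members were NAT10, in each role list the called genes (up to 4 with the largest change in each direction), and the 5 genes nearest to CCND1 in pattern; CCND2, CDKN2A and CDKN2B were named after their values were seen, as were the markers. Replicate numbers did not pair the libraries, and other settings are given at the end. Some single genes that this rule or the marker lists would name are not reported here.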

Additional observations from a re-analysis of the deposited data

How the results depend on the processing

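Of 269 values recomputed under the alternatives, 248 were taken as unchanged. Fold changes other than that of CCND1 had to keep their direction and their side of the threshold. The fold change of CCND1 and the shares had to move by less than the spread between libraries. Counts had only to stay within 1.5-fold of the reported count. Thus 18 other pathway genes called higher without shNAT10 replicate 3, in place of 27, were taken as unchanged. The values of genes near 0 changed sign without passing the test. CCNE1 was at -0.0081 without shCtrl replicate 1 and -0.016 without shNAT10 replicate 2 (up to 0.084 with other libraries left out). Its highest values were 0.14 with TPM and 0.15 with the length correction (limma adjusted p = 0.0767). CDKN1B was at 0.10 with TPM, 0.0037 with quantile normalization, 0.0033 with voom on recovered reads and 0.089 with the length correction. It was at 0.014 without shCtrl replicate 3 and 0.015 without shNAT10 replicate 2 (down to -0.025 with other libraries left out). With a minimum FPKM of 5, 1 member other than CCND1 was called lower in place of 2, because CCNE2 was no longer tested. Without a filter on low values 5 other pathway genes were called lower in place of 10, among 29695 genes tested. With 1 library left out, their number ran from 4 to 11 lower and from 17 to 31 higher, and the cause was not tested. The log2 fold change of NAT10 lay between -1.88 and -1.74 throughout. The difference in the CCND1 share lay between -6.92 and -5.61 percentage points, in the CCNE1 share between 10.9 and 13.6, and in the CDK4 share between -17.4 and -12.0. With the 50% of peaks of highest fold enrichment, or of lowest p, 4 members had a shCtrl peak and 5 a shNAT10 peak, and with at least 50% of both peaks shared, 4 peaks of each group overlapped. Calls over all genes ran from 1765 lower (without shNAT10 replicate 3) to 3318 (without shCtrl replicate 2). Same-numbered libraries correlated at -0.043, 0.064 and 0.107 in their deviations, so the numbers do not pair them, and with the replicate block 2 members were called lower and 3 higher, with 8 and 24 other pathway genes. No group had the 4 libraries a search for single outlying values needs, and low depth limits CCNE2 most.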
